A study of Mus musculus with 43 samples.

Results

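The genes that build sterols and fatty acids were examined in 4 kinds of mononuclear phagocyte from the lungs of newborn C57BL/6 mice. The set was a list of 32 gene symbols that runs from acetyl-CoA to cholesterol, takes in the proteins that sense sterols, and covers the synthesis, elongation and desaturation of fatty acids. The list follows gene function in these pathways, but it was chosen with earlier results of these data known. Of the 32, 31 were matched to the 37991 genes of the deposited count table. Hmgcs1 was not matched and has no value here. Litters were found within 6 hours of birth, mixed, and assigned at random to room air (normoxia) or to oxygen at an FiO2 of 0.9 (hyperoxia) for 1.5 days, and the labels name no transgene or deletion. Alveolar macrophages (AM) were sorted as SiglecFhi CD11chi, dendritic cells (DC) as MHCIIhi CD11chi, and 2 sets of monocytes and macrophages as Ly6Chi CD11clo (Ly6Chi) and Ly6Clo CD11chi (Ly6Clo). The normoxic groups held 6 libraries each, or 5 for Ly6Clo, and every hyperoxic group held 5. Each library carries a litter number (93, 100 or 108), which was a term in the fits. The labels tie no library to a pup, so p-values measure the spread between libraries, and comparisons between populations take no account of pups that gave several of them.

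Cholesterol is built by a long chain of enzymes. The mevalonate arm makes isoprenoid units, the next enzymes join them into squalene and close it into lanosterol, the first sterol, and a further series trims lanosterol into cholesterol. The transcription factor SREBP2, encoded by Srebf2, is held in the endoplasmic reticulum by Scap and Insig1 when sterols are plentiful and is released to switch on these genes when they are scarce, while SREBP1, from Srebf1, acts more on fatty acid genes. In the lung, alveolar macrophages take up and break down surfactant, a film of phospholipid and cholesterol that alveolar type II epithelial cells make with the help of the same fatty acid enzymes.

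Promoter windows are printed for 5 members that have 1 window each. In normoxia Cyp51, Msmo1 and Mvd were higher in AM, and Srebf2 and Fasn in DC, than in the mean of the other populations. They had the smallest p among the members with 1 window that were called higher there. The mean CPM of Mvd was higher still in Ly6Clo. Sqle and Stard4 had no promoter entry and could not be printed. Each window holds the 250 bases before the transcription start in the RefSeq table of build GRCm38.p6, 5′ to 3′ on the gene's strand. Capitals mark CCAAT, the core bound by NF-Y, and GGGCGG, the GC box bound by Sp1 family factors, on either strand.
Cyp51 (chr5:4104698-4104947, minus strand): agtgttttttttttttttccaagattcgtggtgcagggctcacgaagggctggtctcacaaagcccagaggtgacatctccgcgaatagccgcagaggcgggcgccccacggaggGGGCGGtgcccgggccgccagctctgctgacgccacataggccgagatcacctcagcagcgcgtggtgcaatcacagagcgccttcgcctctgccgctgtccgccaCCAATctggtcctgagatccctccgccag
Msmo1 (chr8:64733579-64733828, minus strand): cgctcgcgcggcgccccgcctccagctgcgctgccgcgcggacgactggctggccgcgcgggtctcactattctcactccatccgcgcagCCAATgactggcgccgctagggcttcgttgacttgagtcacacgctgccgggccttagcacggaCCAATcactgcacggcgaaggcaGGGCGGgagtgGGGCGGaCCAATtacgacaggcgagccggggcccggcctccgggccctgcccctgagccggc
Mvd (chr8:122443423-122443672, minus strand): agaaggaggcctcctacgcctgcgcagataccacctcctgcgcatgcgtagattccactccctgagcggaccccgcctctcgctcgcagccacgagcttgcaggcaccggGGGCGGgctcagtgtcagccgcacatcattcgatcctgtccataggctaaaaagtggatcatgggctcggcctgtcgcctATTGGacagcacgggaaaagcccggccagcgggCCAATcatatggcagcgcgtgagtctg
Srebf2 (chr15:82147019-82147268, plus strand): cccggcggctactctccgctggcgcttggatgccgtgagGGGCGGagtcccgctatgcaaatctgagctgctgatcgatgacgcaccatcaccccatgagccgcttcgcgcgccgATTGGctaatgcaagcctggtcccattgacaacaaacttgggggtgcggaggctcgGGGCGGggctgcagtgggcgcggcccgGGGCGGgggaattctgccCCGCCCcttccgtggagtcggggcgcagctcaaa
Fasn (chr11:120824548-120824797, minus strand): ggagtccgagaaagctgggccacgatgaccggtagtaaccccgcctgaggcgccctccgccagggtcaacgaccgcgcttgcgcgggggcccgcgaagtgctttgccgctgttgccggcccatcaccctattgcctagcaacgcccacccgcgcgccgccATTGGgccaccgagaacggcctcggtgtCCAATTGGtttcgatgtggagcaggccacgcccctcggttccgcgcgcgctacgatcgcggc
In these windows CCAAT matched 1 time in Cyp51, 3 times in Msmo1, 2 times in Mvd, 1 time in Srebf2 and 3 times in Fasn, and GGGCGG matched 1, 2, 1, 4 and 0 times in the same order. The table held an entry for 25 of the 32 members, giving 32 windows because some genes have several starts. CCAAT, on both strands, was in 62.5% of these windows and in 33.8% of all 32851 windows of 250 bases. GGGCGG was in 71.9% against 32.7%, and 50.0% of member windows held both against 11% of all; the 2 motifs overlapped in 1 member window. TCACNCCAC, the core of a sterol regulatory element, was in 1 member window (Hmgcs1), 3.12% against 1.05%. These are matches of letters, not measured binding.

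Library totals ran from 551960 to 2403861 counts, and 5 libraries held under 1000000: 3 of hyperoxic AM, 1 of normoxic AM and 1 of hyperoxic Ly6Clo. Levels are given as CPM, the share of a library's counts per 1000000 after TMM scaling. The summed CPM of 14 AM markers was 5041 to 6207 in normoxic AM, 2935 to 4524 in normoxic Ly6Clo and at most 1027 in normoxic DC and Ly6Chi, and the median sums of 12 DC and 8 classical monocyte markers were highest in DC and Ly6Chi. Siglecf was at 131 ± 33.0 CPM (SD, n = 6) in normoxic AM and 19.8 ± 10.1 (SD, n = 5) in normoxic Ly6Clo. The summed CPM of 15 lung epithelial markers ranged from 411 to 3371 over the 43 libraries, and no marker was at 0 throughout a group. The summed CPM of 9 neutrophil markers was 1843 to 3283 in normoxic Ly6Chi (median 2481), against medians of 266 in AM, 513 in DC and 430 in Ly6Clo, and that of 18 proliferation markers was 1789 to 2579 in normoxic AM, 1402 to 2509 in DC, 1149 to 2405 in Ly6Chi and 511 to 1829 in Ly6Clo (medians 2215, 1981, 1783 and 876). Their part in the population differences was not tested. In sorted bulk libraries such as these, fewer cells of a type and less RNA per cell cannot be told apart.

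In normoxia AM held the highest mean CPM for 19 of the 29 members that passed the filter on low counts, DC for 6, Ly6Clo for 4 and Ly6Chi for 0. Ly6Chi held the lowest for 19, DC for 6, Ly6Clo for 3 and AM for 1. The mean log2 CPM over 30 members, a description of each library with no test, ran from 5.60 to 5.88 in AM (5.75 ± 0.11, SD, n = 6) and from 5.33 to 5.57 in DC (5.45 ± 0.09, SD, n = 6). It ran from 5.10 to 5.51 in Ly6Clo (5.32 ± 0.16, SD, n = 5) and from 4.81 to 5.22 in Ly6Chi (4.93 ± 0.15, SD, n = 6). In this mean over 30 members all normoxic AM libraries lay above all others, DC overlapped Ly6Clo, and Ly6Clo overlapped Ly6Chi. Over the sterol members alone normoxic AM, from 5.49 to 6.09, overlapped Ly6Clo, from 5.09 to 5.52. Over the fatty acid members the mean was higher in normoxic DC (5.83) than in normoxic AM (5.65). In hyperoxia the mean over 30 members ran from 5.43 to 6.05 in AM and overlapped DC (5.22 to 5.66) and Ly6Clo (5.10 to 5.85). Idi1, which isomerises the isoprenoid unit, was at most 8.84 CPM in any library, and Fads2, the delta-6 desaturase, at most 3.81 CPM; both fell under the filter in the comparisons of populations.

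**Figure D1:**
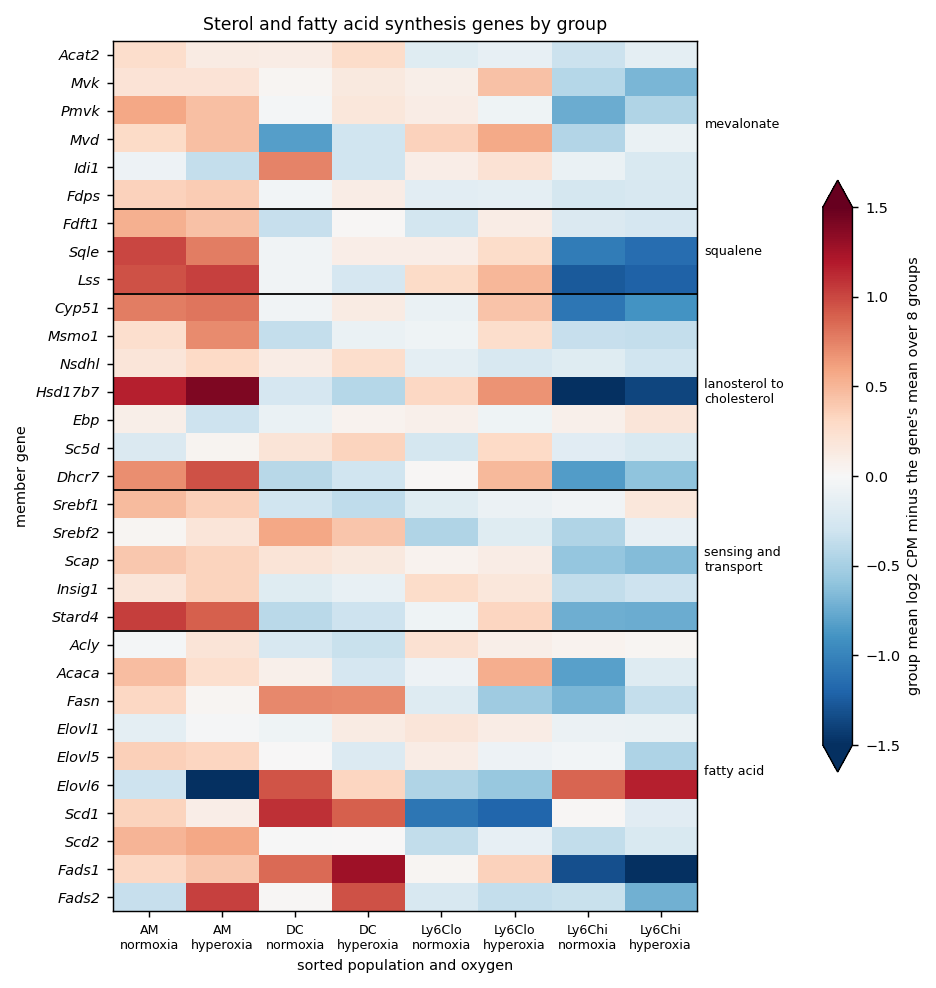
Rows are the 31 matched members ordered by role, columns are the 8 groups, and colour gives the group mean log2 CPM minus the gene's mean over the 8 groups (red above, blue below). Sqle, Cyp51 and Stard4 are red in both AM columns and blue in both Ly6Chi columns, while Srebf2, Fasn and Fads1 are red in DC.

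To ask where the pathway was expressed, every normoxic population was set against the average of the remaining 3. In AM 16 of the 29 members were higher and 1 was lower (edgeR quasi-likelihood test, Benjamini-Hochberg adjusted p under 0.05), where 23.6% of all 11979 genes tested were called higher and 26.9% lower. The median log2 difference over the 29 was 0.53, against -0.04 over all genes. Higher members were 3 of 5 tested in the mevalonate arm, 3 of 3 from squalene to lanosterol, 4 of 7 from lanosterol to cholesterol, 3 of 5 in sterol sensing and transport and 3 of 9 in the fatty acid group. Within single litters 15 of the 16 were higher in each of the 3 litters, the exception being Fdps. Errors on log2 differences are standard errors throughout.

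Sqle, squalene epoxidase, puts the first oxygen on squalene. It lay between 88.9 and 131 (median 109) CPM in AM, between 36.3 and 62.1 (median 53.2) in DC and between 15.9 and 35.6 (median 25.4) in Ly6Chi, and was at 49.9, 52.3, 56.3, 56.4 and 80.2 in Ly6Clo. Every AM library was above, and every Ly6Chi library below, all libraries of the other populations. Sqle was higher in AM by 1.34 ± 0.14 (adjusted p = 1.31e-08) on the log2 scale, with differences of 1.20, 1.60 and 1.23 in litters 93, 100 and 108. Fdft1, squalene synthase, was higher by 0.87 ± 0.16 (adjusted p = 6.21e-05) and Lss, which closes the ring of lanosterol, by 1.23 ± 0.27 (adjusted p = 0.000565). Lss is a low gene, between 22.8 and 52.5 CPM in AM and between 1.97 and 13.9 in Ly6Chi.

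Cyp51 is the demethylase that acts first on lanosterol. It lay between 112 and 179 (median 141) CPM in AM, between 58.5 and 100.5 (median 83.1) in DC and between 28.7 and 52.5 (median 39.8) in Ly6Chi, and was at 63.2, 72.4, 74.1, 79.6 and 105 in Ly6Clo. The AM libraries were again above and the Ly6Chi libraries below all others. The AM difference was 1.19 ± 0.12 (adjusted p = 7.62e-09), and within litters 93, 100 and 108 it was 1.34, 1.39 and 0.75. Msmo1, a sterol C4-methyl oxidase, was higher in AM by a smaller 0.50 ± 0.09 (adjusted p = 8.86e-05), and its AM libraries, between 162.5 and 289 (median 248) CPM, overlapped those of other populations. Hsd17b7, a sterol ketoreductase, and Dhcr7, which acts last, were 2.80-fold and 2.07-fold higher in AM. Nsdhl, Ebp and Sc5d were not called. With the number of genes detected in each library added to the fit, the log2 difference of Hsd17b7 was 1.51 against 1.48 without it, and the call was lost (adjusted p = 0.0607). That number differed between populations. It ran from 13599 to 15080 in normoxic AM and from 15774 to 16369 in normoxic DC. The parts of depth and of population therefore cannot be told apart wherever this fit is used.

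In the mevalonate arm Pmvk and Mvd, which phosphorylate and decarboxylate mevalonate products, were higher in AM by 0.85 ± 0.12 (adjusted p = 1.06e-06) and 0.59 ± 0.12 (adjusted p = 0.000277). Fdps, which makes farnesyl diphosphate, was higher by 0.62 ± 0.16 (adjusted p = 0.00262). Mvk and Acat2 were not called. The gene of Acat2 overlaps Tcp1 on the other strand, and these libraries do not mark strand, so reads of the shared bases cannot be told apart.

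Stard4, a carrier that moves cholesterol between membranes, lay between 95.98 and 146 (median 117) CPM in AM, between 27.7 and 73.8 (median 43.2) in DC and between 28.1 and 55.2 (median 30.2) in Ly6Chi, and was at 33.6, 50.98, 59.3, 64.8 and 69.1 in Ly6Clo. The AM libraries overlapped no other population, and the other 3 populations overlapped one another. Stard4 was higher in AM by 1.44 ± 0.15 (adjusted p = 1.10e-08). Sqle, Cyp51 and Stard4 were the 3 of 29 members with every AM library above all others, where 1.89% of all genes tested showed this. Scap, the SREBP escort, was higher by 0.53 ± 0.13 (adjusted p = 0.00114) and Srebf1 by 0.64 ± 0.15 (adjusted p = 0.00124), while Srebf2 (0.13) and Insig1 (0.27) were not called.

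In the fatty acid group Scd2, a stearoyl-CoA desaturase, was higher in AM by 0.77 ± 0.13 (adjusted p = 3.77e-05). Elovl5, an elongase of polyunsaturated fatty acids, was 1.24-fold higher and Acaca, the acetyl-CoA carboxylase that commits carbon to fatty acids, 1.69-fold higher. Elovl5 lost its call without normoxic AM replicate 4 (adjusted p = 0.0564), and Acaca without normoxic AM replicate 2, 3 or 6 (adjusted p = 0.0886, 0.0539 and 0.0689). Adding the number of genes detected put Acaca at 0.35 (adjusted p = 0.536) and Elovl5 at 0.21 (adjusted p = 0.302). Elovl6, which lengthens palmitate to stearate, was 1.85-fold lower in AM. Without litter 93, and without litter 108, the call was lost for Elovl6 (adjusted p = 0.178 and 0.0647), Elovl5 (0.0554 and 0.0575) and Acaca (0.142 and 0.0966). Acly, Fasn, Scd1, Elovl1 and Fads1 were not called.

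**Figure D2:**
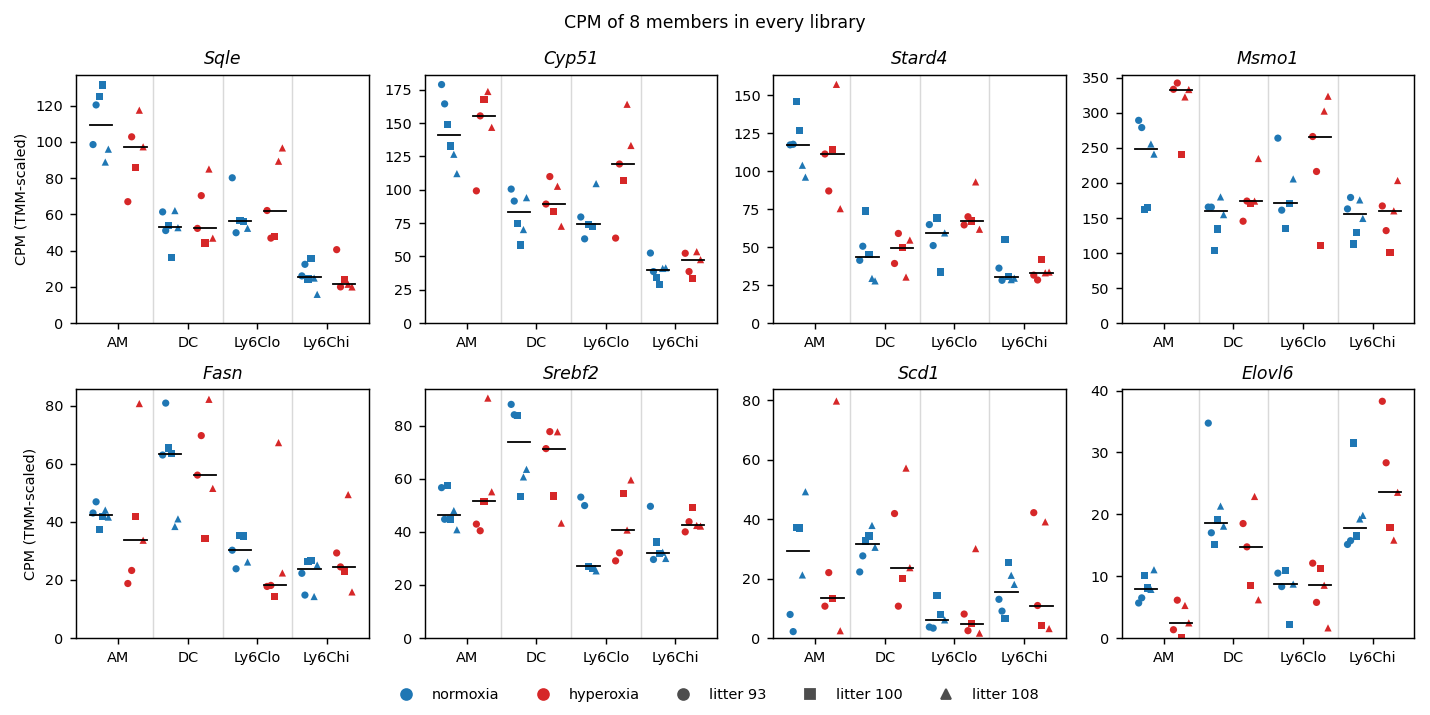
Each point is the CPM of 1 library for 8 members, with blue for normoxia, red for hyperoxia, a marker shape for each litter and a line at the group median. Normoxic AM points for Sqle, Cyp51 and Stard4 lie above all other normoxic points, and hyperoxic AM reaches 79.8 CPM for Scd1 and 80.7 for Fasn in 1 litter 108 library.

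Ly6Chi cells held the lowest levels of most members. Of the 29, 15 were lower than in the remaining populations and 1, Elovl6, was higher, against 19.4% and 24.2% of all genes, and the median difference was -0.40 against 0.03. Lower members were 2 of 5 in the mevalonate arm, 2 of 3 from squalene to lanosterol, 4 of 7 after lanosterol, 3 of 5 in sensing and transport and 4 of 9 in the fatty acid group. All 15 were lower in each of the 3 litters. Log2 differences were -1.41 ± 0.16 (adjusted p = 7.51e-08) for Sqle, -1.32 ± 0.14 (adjusted p = 1.35e-08) for Cyp51, -1.56 ± 0.32 (adjusted p = 0.000286) for Lss, -0.97 ± 0.13 (adjusted p = 6.55e-07) for Pmvk and -0.93 ± 0.17 (adjusted p = 6.29e-05) for Stard4. Sqle, Cyp51 and Stard4, which stood apart as high in AM, were also lower in Ly6Chi. These are not separate results, because each population is part of the average that the others are set against. A low level in Ly6Chi by itself raises the difference in AM.

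Scap lay between 20.7 and 25.6 (median 23.96) CPM in Ly6Chi, between 38.4 and 59.9 in AM and between 33.2 and 52.7 in DC, and was at 28.8, 35.4, 37.01, 38.7 and 47.1 in Ly6Clo. No Ly6Chi library reached any other population for Scap, Sqle or Cyp51, 3 of 29 members where 1.77% of all genes tested lay so. The log2 difference was -0.82 ± 0.13 (adjusted p = 2.13e-05) for Scap, -0.96 ± 0.17 (adjusted p = 5.06e-05) for Fasn, the fatty acid synthase, and -1.66 ± 0.41 (adjusted p = 0.00172) for Fads1, the delta-5 desaturase. Srebf2 was at -0.51 ± 0.15 (adjusted p = 0.00651), Acaca at -1.06 ± 0.31 (adjusted p = 0.00703) and Msmo1 at -0.32 ± 0.10 (adjusted p = 0.00946). Hsd17b7 was 2.73-fold, Mvd 1.31-fold, Scd2 1.33-fold and Dhcr7 1.88-fold lower, and Elovl6 was higher by 0.80 ± 0.25 (adjusted p = 0.0110).

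Some of these calls rested on single Ly6Chi libraries. Without normoxic Ly6Chi replicate 3 the calls of Elovl6, Mvd, Scd2 and Dhcr7 were lost (adjusted p = 0.0643, 0.0553, 0.0624 and 0.0643). Scd2 was also lost without replicate 2 (adjusted p = 0.0515), and Dhcr7 without replicate 1, 2 or 6 (adjusted p = 0.0682, 0.0859 and 0.0706).

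In DC 6 of the 29 members were higher (Srebf2, Fasn, Scd1, Elovl6, Fads1 and Sc5d) and 4 lower (Mvd, Msmo1, Stard4 and Acly), against 18.9% and 14.9% of all genes, with a median of -0.01 against 0.03. The higher ones included 4 of the 9 fatty acid members. Fasn lay between 38.4 and 80.9 (median 63.3) CPM in DC, between 37.2 and 46.9 (median 42.4) in AM and between 14.3 and 26.6 (median 23.7) in Ly6Chi, and was at 23.8, 26.2, 30.2, 35.1 and 35.4 in Ly6Clo. The DC and AM ranges overlapped, and the DC libraries were above all Ly6Clo and Ly6Chi libraries. Fasn was higher in DC by 0.95 ± 0.15 (adjusted p = 1.52e-05), with 1.33, 0.94 and 0.51 in litters 93, 100 and 108.

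Srebf2 lay between 53.4 and 87.97 (median 73.7) CPM in DC, between 40.8 and 57.5 in AM and between 29.6 and 49.6 in Ly6Chi, and was at 25.3, 26.3, 26.95, 49.9 and 53.1 in Ly6Clo. All DC libraries were above those of Ly6Clo and Ly6Chi, and the AM range reached into that of DC. The difference was 0.89 ± 0.14 (adjusted p = 8.81e-06). Scd1, the main stearoyl-CoA desaturase of many tissues, was higher in DC by 1.25 ± 0.29 (adjusted p = 0.00137), Elovl6 by 0.95 ± 0.25 (adjusted p = 0.00375), Fads1 by 0.99 ± 0.34 (adjusted p = 0.0248) and Sc5d, the lathosterol desaturase, by 0.42 ± 0.15 (adjusted p = 0.0390).

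Mvd lay between 43.3 and 92.5 (median 54.01) CPM in DC, between 96.5 and 159 in AM and between 42.7 and 97.5 in Ly6Chi, and was at 118, 125, 127, 136 and 139.5 in Ly6Clo. No DC library reached an AM or Ly6Clo library. The log2 difference in DC was -0.90 ± 0.13 (adjusted p = 6.30e-06). Msmo1 was at -0.31 ± 0.10 (adjusted p = 0.0129), Stard4 at -0.47 ± 0.16 (adjusted p = 0.0251) and Acly, ATP citrate lyase, at -0.32 ± 0.11 (adjusted p = 0.0300).

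The smaller DC differences rested on few libraries. Without DC replicate 1, 4, 5 or 6 Stard4 lost its call (adjusted p = 0.0616, 0.0688, 0.0756 and 0.0836). Without DC replicate 1, 2, 3, 4 or 5 Acly did (adjusted p = 0.0673, 0.0631, 0.0775, 0.0771 and 0.0746), and without replicate 5 or 6 Fads1 did (adjusted p = 0.0519 and 0.0591). Sc5d lost its call without DC replicate 1, 4, 5 or 6 (adjusted p = 0.0508, 0.220, 0.0890 and 0.0680). It also lost it without Ly6Clo replicate 2, 3, 4 or 5, Ly6Chi replicate 3 or 5, or AM replicate 5 (adjusted p = 0.0543, 0.0553, 0.0599, 0.0505, 0.0510, 0.0618 and 0.0623). With the number of genes detected added to the fit 3 members were called in DC: Fasn, Srebf2 and Mvd.

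In Ly6Clo Mvd was higher (0.70 ± 0.13 (adjusted p = 0.000469)) and Scd1 (-1.68 ± 0.39 (adjusted p = 0.00398)) and Srebf2 (-0.52 ± 0.16 (adjusted p = 0.0347)) were lower, 1 and 2 of 29 against 8.51% and 3.51% of all genes. Scd1 was at 3.33, 3.70, 6.10, 8.04 and 14.3 CPM in Ly6Clo and between 22.3 and 37.9 (median 31.6) in DC, and the ranges did not overlap. The Srebf2 call was lost without Ly6Clo replicate 3, 4 or 5 (adjusted p = 0.138, 0.142 and 0.160). It was also lost without DC replicate 1, Ly6Chi replicate 1 or 5 or AM replicate 5 (adjusted p = 0.0616, 0.0539, 0.0501 and 0.0510).

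Pairs of normoxic populations were compared in the same fit. AM against Ly6Chi gave 20 members higher and 1 lower (24.0% and 28.3% of all genes), AM against DC 13 and 2 (22.4% and 27.5%), and AM against Ly6Clo 9 and 0 (7.28% and 14.2%). The 9 above Ly6Clo were Pmvk, Fdps, Fdft1, Sqle, Cyp51, Srebf1, Stard4, Scd1 and Scd2. DC against Ly6Chi gave 10 and 0 (14.2% and 14.4%), DC against Ly6Clo 4 and 3 (11.7% and 12.7%), and Ly6Chi against Ly6Clo 2 and 9 (15.7% and 15%). Sqle and Cyp51 were not called between DC and Ly6Clo (adjusted p = 0.738 and 0.894).

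The same contrasts were made in the 20 hyperoxic libraries, which the normoxic fit did not use. In AM 16 members were higher and 1 was lower (22.2% and 21.8% of 11504 genes), and 15 of the 16 called higher in normoxia were among the 16 called higher in hyperoxia. Acaca was called in normoxia and not in hyperoxia, and Acly the other way round. Within single litters 14 of the 16 called in hyperoxia were higher in every litter. The exceptions were Pmvk and Fdft1, at -0.00133 and -0.0127 in litter 100. Sqle was at 67.01, 85.8, 97.3, 103 and 117.5 CPM in AM, 44.2, 46.9, 52.3, 70.3 and 85.02 in DC, 46.9, 47.95, 62.1, 89.3 and 96.7 in Ly6Clo and 19.9, 19.97, 21.4, 24.1 and 40.5 in Ly6Chi. The Ly6Chi libraries were below every other, and the AM libraries overlapped those of DC and Ly6Clo.

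Among sterol members, hyperoxic AM was higher for Stard4 by 1.23 ± 0.17 (adjusted p = 3.45e-06), Msmo1 by 0.80 ± 0.13 (adjusted p = 3.26e-05), Cyp51 by 0.96 ± 0.16 (adjusted p = 4.21e-05), Sqle by 1.06 ± 0.19 (adjusted p = 9.98e-05) and Lss by 1.44 ± 0.28 (adjusted p = 0.000276). Hsd17b7 was higher by 1.73 ± 0.40 (adjusted p = 0.00122), Dhcr7 by 1.20 ± 0.29 (adjusted p = 0.00210), Pmvk by 0.63 ± 0.16 (adjusted p = 0.00279) and Mvd by 0.47 ± 0.14 (adjusted p = 0.00718). In the fatty acid group Elovl5 was higher by 0.62 ± 0.14 (adjusted p = 0.000865) and Scd2 by 0.88 ± 0.22 (adjusted p = 0.00245). Fdps was 1.46-fold, Scap 1.47-fold, Acly 1.26-fold, Fdft1 1.49-fold and Srebf1 1.46-fold higher. Of the 17 members called in hyperoxic AM, 5 were called in every alternative fit and set of libraries tried: Cyp51, Lss, Msmo1, Sqle and Stard4. Elovl5 lost its call without libraries under 1000000 counts (0.33, adjusted p = 0.234) and Pmvk without litter 93 (adjusted p = 0.269). Dhcr7 lost it without litter 108 (adjusted p = 0.154) and Hsd17b7 with the number of genes detected in the fit (adjusted p = 0.166). Of the 16 called higher, 7 lost the call without 1 hyperoxic AM library. These were Fdps without replicate 2 (adjusted p = 0.105), Fdft1 without replicate 2 or 5 (0.107 and 0.102), Srebf1 without replicate 2 or 4 (0.0682 and 0.172), Acly without replicate 3 or 4 (0.106 and 0.0725), Scd2 and Scap without replicate 4 (0.0723 and 0.0937) and Mvd without replicate 5 (0.0565).

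Elovl6 was at 0, 1.34, 2.45, 5.26 and 6.12 CPM in hyperoxic AM, which are 0 to 6 counts, and at 15.8, 17.8, 23.6, 28.3 and 38.3 in hyperoxic Ly6Chi. The ranges did not overlap, and 1 Ly6Clo library at 1.64 CPM fell among the AM values. Elovl6 was lower in AM by a log2 difference of -2.0 ± 0.49 (adjusted p = 0.00218). With the number of genes detected added to the fit the call was lost (adjusted p = 0.331). It was also lost without libraries under 1000000 counts (adjusted p = 0.095) and without litter 93 (adjusted p = 0.0843).

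In hyperoxic Ly6Chi 13 members were lower and 1 higher (16.8% and 20.4%). Shared with normoxia were 11 of these 13 and of the 15 lower there, and Elovl6 as the higher one. Log2 differences were -1.39 ± 0.18 (adjusted p = 2.24e-06) for Cyp51, -1.54 ± 0.22 (adjusted p = 6.73e-06) for Sqle, -1.12 ± 0.19 (adjusted p = 5.46e-05) for Stard4, -2.49 ± 0.43 (adjusted p = 7.56e-05) for Fads1, -0.68 ± 0.14 (adjusted p = 0.000454) for Msmo1 and 1.75 ± 0.35 (adjusted p = 0.000427) for Elovl6. Scap was at -0.91 ± 0.18 (adjusted p = 0.000462), Lss at -1.64 ± 0.34 (adjusted p = 0.000462), Mvk, mevalonate kinase, at -1.03 ± 0.23 (adjusted p = 0.00122), Pmvk at -0.69 ± 0.17 (adjusted p = 0.00227), Dhcr7 at -1.10 ± 0.32 (adjusted p = 0.00976) and Hsd17b7 at -1.59 ± 0.47 (adjusted p = 0.0104). Elovl5 was 1.39-fold and Mvd 1.29-fold lower. Sqle and Cyp51 were the 2 of 29 members with all Ly6Chi libraries below the rest (1.52% of all genes). Mvd lost its call without any 1 of 10 libraries, with adjusted p from 0.0505 without Ly6Chi replicate 3 to 0.139 without Ly6Chi replicate 4; the others were Ly6Chi replicates 2 and 5 and replicates 2 and 5 of AM, DC and Ly6Clo.

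In hyperoxic DC 2 members were higher, Fads1 by 1.55 ± 0.33 (adjusted p = 0.000866) and Fasn by 0.91 ± 0.28 (adjusted p = 0.0163) (16.6% of all genes). Lower were 4 (15.7%): Mvd at -0.66 ± 0.14 (adjusted p = 0.00105), Acly at -0.49 ± 0.11 (adjusted p = 0.00189), Srebf1 at -0.59 ± 0.19 (adjusted p = 0.0223) and Stard4 at -0.50 ± 0.18 (adjusted p = 0.0366). Acly was at 145, 146, 151, 159 and 165 CPM in DC, below every library of the other populations, the 1 member of 29 with this pattern where 0.765% of all genes had it. Fasn lost its call without DC replicate 2 (adjusted p = 0.0695), and its difference changed sign with the number of genes detected in the fit (-0.05, adjusted p = 0.965). Srebf1 lost it without DC replicate 1, 2 or 3 (adjusted p = 0.0694, 0.0680 and 0.0726). Stard4 lost it without DC replicate 1, 3 or 4 (adjusted p = 0.103, 0.0819 and 0.185), AM replicate 1 (0.0511), Ly6Clo replicate 2 or 4 (0.0503 and 0.0531) or Ly6Chi replicate 3 or 5 (0.0523 and 0.0502). With the number of genes detected in the fit Fads1 was at 0.58 (adjusted p = 0.583) and Mvd at -0.36 (adjusted p = 0.351), and neither was called. Without litter 93 the calls of Fads1, Mvd and Acly were lost (adjusted p = 0.0724, 0.105 and 0.0644), and none of the 6 was called in every setting.

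In hyperoxic Ly6Clo 1 member was higher, Mvd (0.56 ± 0.13 (adjusted p = 0.00640); 7.42% of all genes). The edgeR test called 0 lower (4.19%), and 5 of the 29 members had an unadjusted p under 0.05. DESeq2 and limma voom each called 2 members higher and 0 lower. Whether a population difference itself changed with oxygen is tested below for AM and for all 4 populations.

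**Figure D3:**
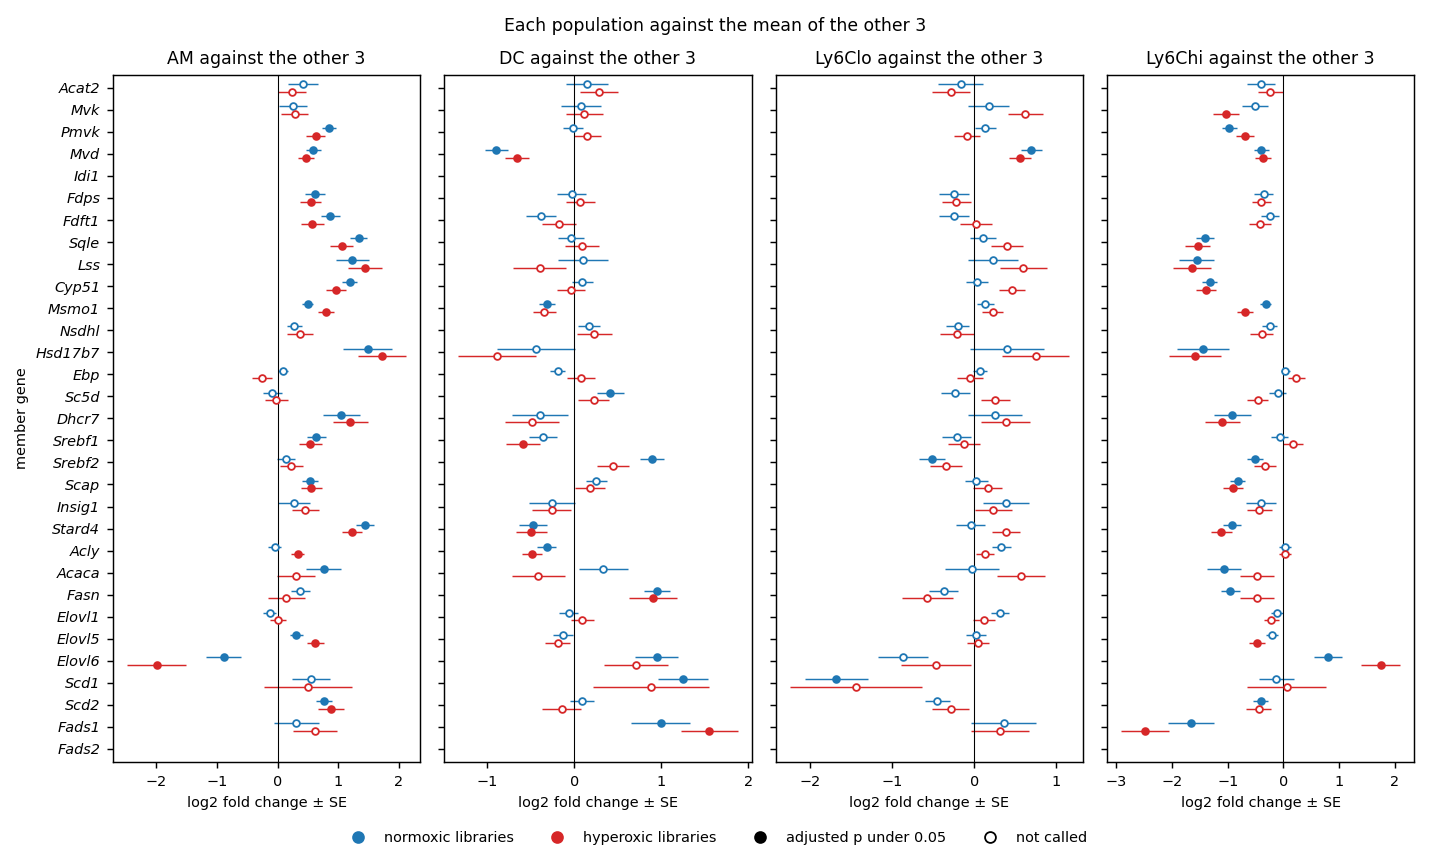
Points are log2 fold changes of each population against the average of the remaining 3 with bars of 1 SE, blue from the normoxic and red from the hyperoxic libraries, filled where the adjusted p was under 0.05. In AM 15 members are filled and above 0 in both colours, and in Ly6Chi 11 are filled and below 0 in both.

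In each hyperoxic group 1 litter 108 library had both the highest Fasn and the highest epithelial sum, and in 3 of the 4 groups also the highest Scd1. Scd1 was at 2.45, 10.7, 13.4, 22.03 and 79.8 CPM in hyperoxic AM and between 2.16 and 49.3 (median 29.2) in normoxic AM. In the hyperoxic AM library at 79.8 (litter 108, replicate 4) the 15 epithelial markers summed to 2583 CPM, the highest of the 5, and in the library at 2.45 (litter 108, replicate 5) they summed to 431, the lowest. The litter 108 library numbered 4 had the highest epithelial sum of each hyperoxic group, at 2583 in AM, 3063 in DC, 3108 in Ly6Chi and 2367 in Ly6Clo. The numbers follow accession order and do not tie libraries of different populations to 1 pup. The library numbered 4 also had the highest Scd1 in AM, in DC (57.2) and in Ly6Clo (30.1), and in Ly6Chi its 39.1 was second to 42.2 in replicate 1, whose epithelial sum was 2271. Other libraries did not keep this order: in hyperoxic AM replicate 3, with a sum of 2446, Scd1 was at 13.4 against 22.03 in replicate 2 with 1522, and in normoxic AM it was 49.3 at a sum of 1952 and 7.93 at 2112.

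Fasn was highest in the library numbered 4 in all 4 hyperoxic groups, at 80.7 CPM in AM, 82.2 in DC, 49.4 in Ly6Chi and 67.2 in Ly6Clo, where the others were at 14.4, 17.8, 18.1 and 22.4. In normoxic AM and DC the highest epithelial sum and the highest Fasn fell in different libraries. Fasn was at 46.9 CPM in the AM library with the lowest sum (693) and 37.2 in that with the highest (3371). In DC it was at 80.9 with the lowest sum (847) and 65.4 with the highest (2817). In normoxic Ly6Chi and Ly6Clo Fasn was highest in the library with the highest sum, at 26.6 CPM (3275) and 35.4 (2106). Fasn was nearly as high at lower sums, at 26.3 CPM in Ly6Chi replicate 3 (1394) and 35.1 in Ly6Clo replicate 4 (956.6). In hyperoxic DC it was at 69.7 with a sum of 999.5 and 51.5 with 1762. Sqle spread less in hyperoxic AM, at 117.5 and 97.3 CPM in the libraries with epithelial sums of 2583 and 431. With the summed epithelial markers in the fit, an alternative chosen after seeing the data, 17 members were called in AM, 10 in DC, 16 in Ly6Chi and 2 in Ly6Clo in normoxia, against 17, 10, 16 and 3 without it; the call lost was Srebf2 in Ly6Clo (adjusted p = 0.134). In hyperoxia the numbers were 17, 6, 16 and 3 against 17, 6, 14 and 1.

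**Figure D4:**
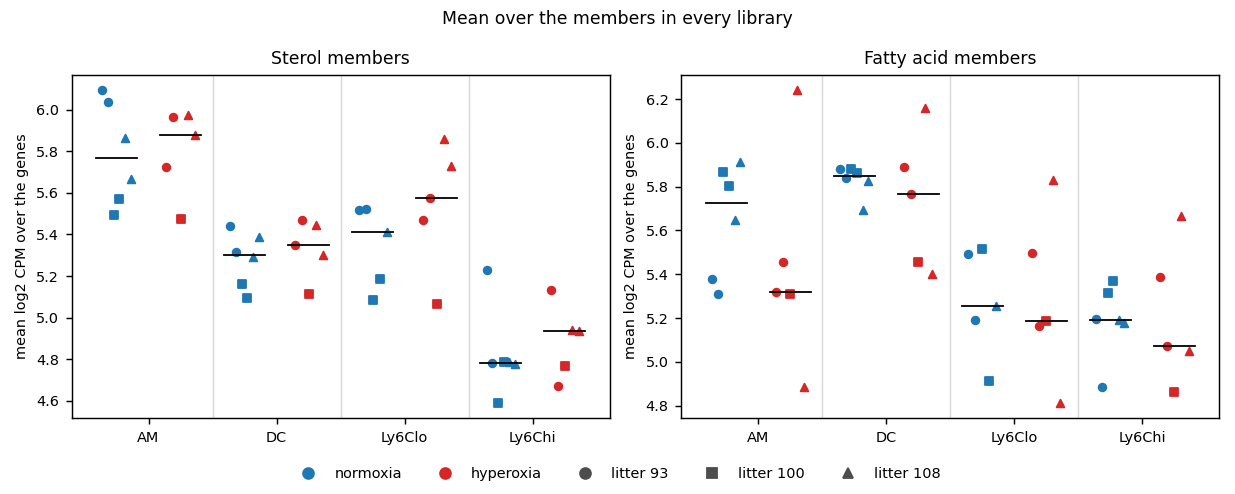
Each point is 1 library, at its mean log2 CPM over the 21 sterol members and over the 9 fatty acid members, coloured by oxygen and shaped by litter. The sterol values of AM lie between 5.48 and 6.09 and those of Ly6Chi between 4.59 and 5.23, and the highest fatty acid value of each hyperoxic group is the litter 108 library numbered 4.

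Hyperoxia was compared with normoxia within each population to ask whether 1.5 days of high oxygen changed these genes, and no member was called in any of the 4. The edgeR test called 0 of 28 members in AM, 0 of 30 in DC, 0 of 28 in Ly6Chi and 0 of 28 in Ly6Clo, where it called 0.11% of all genes in AM, all higher, and 0.0% in the other 3 populations. Members at an unadjusted p under 0.05 numbered 2 in AM, 3 in DC, 1 in Ly6Chi and 1 in Ly6Clo, and DESeq2 and limma voom also called 0 in each. Medians over the members tested were 0.03 in AM, 0.06 in DC, 0.08 in Ly6Chi and 0.14 in Ly6Clo, against -0.01, 0.00, -0.01 and -0.01 over all genes. The hyperoxic and normoxic libraries of a population did not overlap for 0 members, while they did not overlap for 0.881% of all genes in AM, 0.452% in DC, 0.184% in Ly6Chi and 0.687% in Ly6Clo.

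In AM the smallest p belonged to Msmo1, at 240.2, 323, 333, 334 and 343 CPM in hyperoxia and between 162.5 and 289 (median 248) in normoxia. Of the 5 hyperoxic libraries 4 were above every normoxic one, and the litter 100 library at 240.2 was not. The difference was 0.38 ± 0.11 with a 95% interval of 0.15 to 0.61 and did not pass (adjusted p = 0.228). Ebp, the sterol isomerase, was at -0.43 ± 0.19 (adjusted p = 0.478), Acly at 0.26 ± 0.16 (adjusted p = 0.618) and Pmvk at -0.20 ± 0.17 (adjusted p = 0.750). Pmvk took the opposite sign, 0.19, with the number of genes detected in the fit. The 95% interval was -0.58 to 0.21 for Sqle and -0.31 to 0.44 for Cyp51 in AM, both within a 2-fold change, and -1.44 to 2.10 for Scd1, which reaches beyond it.

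In DC the smallest p belonged to Mvd, at 58.3, 69.00, 86.7, 93.1 and 116 CPM in hyperoxia and between 43.3 and 92.5 in normoxia, a difference of 0.50 ± 0.17 (adjusted p = 0.457) with overlapping ranges. Idi1 was at -1.12 ± 0.49 (adjusted p = 0.546), Fads1 at 0.44 ± 0.19 (adjusted p = 0.546) and Elovl6 at -0.61 ± 0.32 (adjusted p = 0.587). In Ly6Chi the smallest p belonged to Elovl5 (-0.47 ± 0.20 (adjusted p = 0.758)), Pmvk (0.35 ± 0.18 (adjusted p = 0.758)), Acaca (0.73 ± 0.38 (adjusted p = 0.758)) and Srebf2 (0.34 ± 0.19 (adjusted p = 0.758)). None of these 8 passed.

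In Ly6Clo the smallest p belonged to Cyp51, at 63.7, 107, 119, 133 and 164 CPM in hyperoxia and 63.2, 72.4, 74.1, 79.6 and 105 in normoxia. Of the 5 hyperoxic libraries 4 were above every normoxic one. The difference was 0.47 ± 0.20 with a 95% interval of 0.04 to 0.91 and did not pass (adjusted p = 0.860). Acaca was at 0.72 ± 0.36 (adjusted p = 0.860), Sc5d at 0.40 ± 0.22 (adjusted p = 0.860) and Stard4 at 0.33 ± 0.23 (adjusted p = 0.860). Litter 100 held 1 hyperoxic library of each population, and litter 108 held 1 normoxic library of Ly6Clo. Differences within a litter rest there on that 1 library on 1 side. Within litters Cyp51, Hsd17b7, Stard4, Acaca and Scd2 were higher in hyperoxia in each of the 3, 5 of 28 members where 9.28% of all genes behaved so. The like counts were 2 of 28 in AM (14.2% of all genes), 8 of 30 in DC (15.3%) and 6 of 28 in Ly6Chi (12.5%). Lower in each of the 3 litters were 1 in AM, Pmvk (17.5% of all genes), 4 in DC, Idi1, Srebf2, Elovl5 and Elovl6 (16%), 1 in Ly6Chi, Elovl5 (15.3%), and 0 in Ly6Clo (13.3%).

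**Figure D5:**
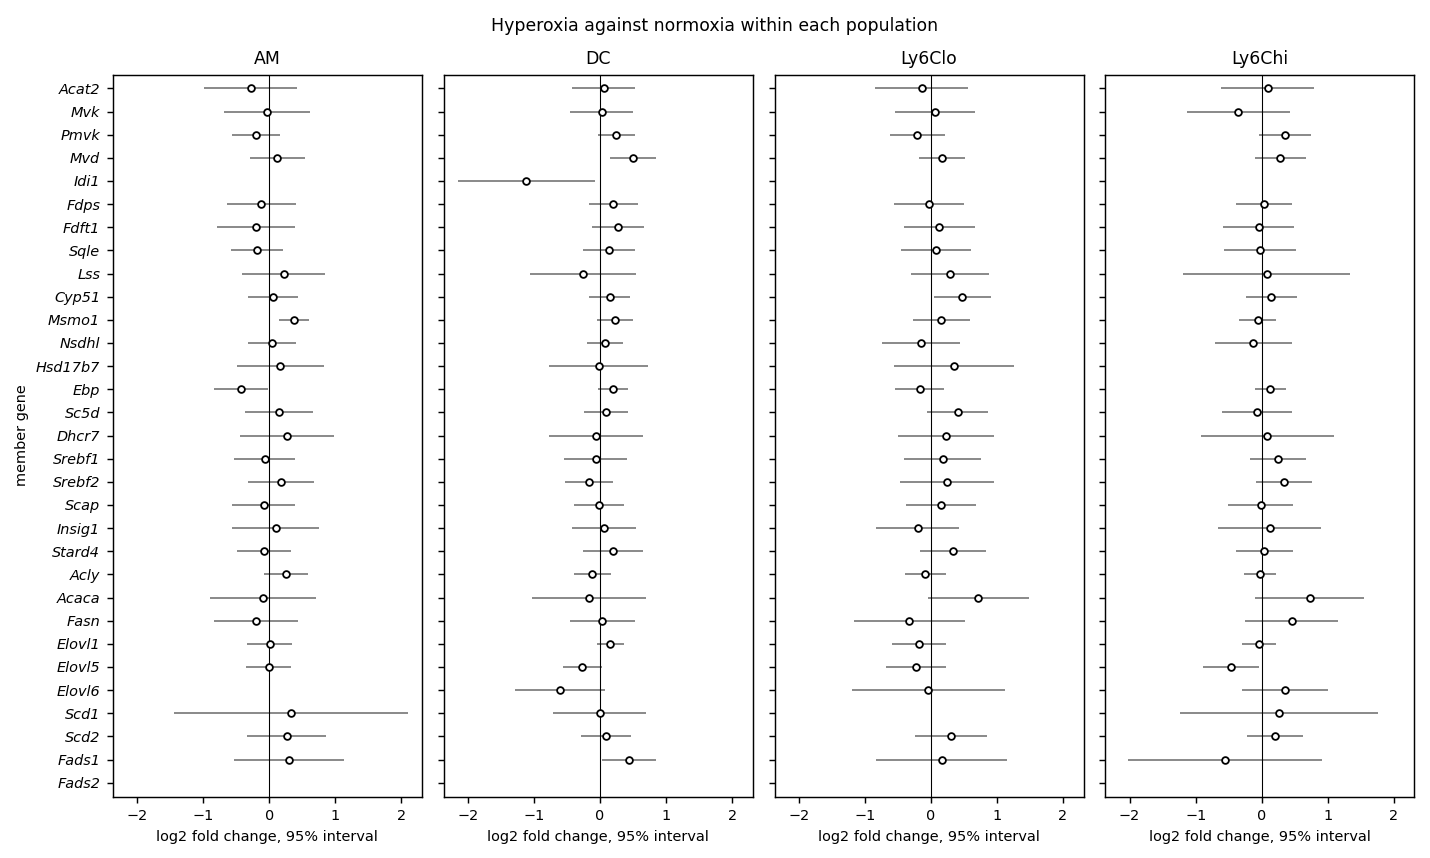
Points are log2 fold changes of hyperoxia against normoxia for each member in each population, with lines spanning the 95% interval; members without a point did not pass the filter on low counts. No point reached an adjusted p under 0.05; Msmo1 in AM, at 0.38, has the interval 0.15 to 0.61.

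Averaged over the 4 populations in a fit of all 43 libraries, edgeR called 0 of 30 members, where it called 3.02% of 12529 genes (2.34% higher and 0.678% lower), and 4 members had an unadjusted p under 0.05. Mvd came closest at 0.26 ± 0.09 (95% interval 0.08 to 0.43, adjusted p = 0.0851), then Elovl5 at -0.24 ± 0.10 (adjusted p = 0.150), Msmo1 at 0.19 ± 0.07 (adjusted p = 0.155) and Cyp51 at 0.22 ± 0.09 (adjusted p = 0.209). DESeq2 called 1 member, Mvd (adjusted p = 0.0349), and limma voom 0. Without litter 93 edgeR called Mvd (0.44, adjusted p = 0.0304) and Srebf2 (0.46, adjusted p = 0.0483). Without DC hyperoxia replicate 1 or DC normoxia replicate 6 it called Mvd (adjusted p = 0.0418 and 0.0348).

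The test of a difference in the hyperoxia effect between the 4 populations called 0 of 30 members (0.0% of all genes), with 0 at an unadjusted p under 0.05. The effect in AM minus the mean effect in the other 3 also gave 0 of 30 calls (0.0239% of all genes) with 2 at an unadjusted p under 0.05. There the smallest p belonged to Elovl6 (-1.19 ± 0.55 (adjusted p = 0.726)), Ebp (-0.37 ± 0.18 (adjusted p = 0.769)), Acly (0.33 ± 0.16 (adjusted p = 0.793)) and Msmo1 (0.26 ± 0.16 (adjusted p = 0.869)). DESeq2 and limma voom called 0 members in both tests.

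Levels per kilobase of exon (CPM per kb) give only a rough order of members within a group. The length counts every annotated exon of a gene, whether or not these cells use it. In normoxic AM Elovl1, an elongase of long saturated fatty acids, was highest at 129, then Pmvk at 85.9 and Ebp at 85.1, while Acaca was at 0.981, Idi1 at 0.927 and Fads2 at 0.144. Over the 8 group means the Pearson r with the mean of the other members was 0.98 for Cyp51, 0.977 for Sqle and 0.969 for Scap, and -0.759 for Elovl6, -0.593 for Ebp and 0.0819 for Elovl1; the values share libraries and depth and carry no test. Outside the lists, the 5 genes whose group means were most like the mean of the members were Eef1g (r = 0.993), Ranbp1 (0.989), Hmgn1 (0.987), Dnlz (0.986) and Chpf (0.986), over 8 groups.

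A further 37 genes of the same pathways were listed, and 27 were tested in normoxia. In AM 8 of the 27 were higher and 7 lower, with a median of 0.04, where 23.6% of all genes were higher and 26.9% lower. Mbtps2, the site-2 protease that releases SREBP, was higher by 0.84 ± 0.16 (adjusted p = 7.92e-05) and Lpin1, a phosphatidate phosphatase, by 1.26 ± 0.15 (adjusted p = 1.37e-07). Lower were Lbr, which holds a sterol reductase domain (-1.28 ± 0.18 (adjusted p = 1.37e-06)), Hacd4, of a dehydratase family of fatty acid elongation (-1.44 ± 0.09 (adjusted p = 1.84e-12)), and Acsl5, an acyl-CoA synthetase (-0.77 ± 0.16 (adjusted p = 0.000304)). The counts were 3 higher and 5 lower in DC (18.9% and 14.9% of all genes), 9 and 6 in Ly6Chi (24.2% and 19.4%) and 2 and 1 in Ly6Clo (8.51% and 3.51%).

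Of 12 genes of sterol efflux, storage and oxysterol handling, 6 were higher and 2 lower in normoxic AM (23.6% and 26.9% of all genes). Abcg1, which exports cholesterol, was higher by 2.30 ± 0.13 (adjusted p = 2.41e-13), Nceh1, which frees stored cholesterol from its ester, by 1.61 ± 0.10 (adjusted p = 7.09e-13), Nr1h3, the oxysterol receptor LXR alpha, by 1.86 ± 0.29 (adjusted p = 1.87e-05) and Npc1, the lysosomal cholesterol exporter, by 0.64 ± 0.13 (adjusted p = 0.000315). Cyp27a1, sterol 27-hydroxylase, was at -3.81 ± 0.23 (adjusted p = 1.20e-12) and Nr1h2, LXR beta, at -0.93 ± 0.17 (adjusted p = 4.84e-05). There were 1 higher and 7 lower in DC, 3 and 7 in Ly6Chi and 6 and 0 in Ly6Clo, beside the same shares of all genes as for the pathway list.

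Averaged over the 4 populations, 3 of the 12 efflux genes rose in hyperoxia, where 2.34% of all genes did. Ch25h, which makes 25-hydroxycholesterol, rose by 1.75 ± 0.40 (adjusted p = 0.0141), Npc1 by 0.30 ± 0.08 (adjusted p = 0.0306) and Npc2, its lysosomal partner, by 0.20 ± 0.05 (adjusted p = 0.0245). Of the 30 pathway genes tested there, Acsl1, an acyl-CoA synthetase, rose by 0.58 ± 0.14 (adjusted p = 0.0232). Without DC hyperoxia replicate 3 the calls of Npc1, Npc2 and Acsl1 were lost (adjusted p = 0.0607, 0.0560 and 0.0560), and without Ly6Chi hyperoxia replicate 3 those of Npc1 and Npc2 (0.0519 and 0.0524). None of the 4 was called in 4 other settings. With the summed epithelial markers in the fit Ch25h was at 1.37 (adjusted p = 0.125), Npc1 was at 0.26 (adjusted p = 0.176), Npc2 was at 0.18 (adjusted p = 0.166) and Acsl1 was at 0.37 (adjusted p = 0.218). After adding the number of genes detected Ch25h was at 1.23 (adjusted p = 0.574), Npc1 was at 0.27 (adjusted p = 0.546), Npc2 was at 0.09 (adjusted p = 0.804) and Acsl1 was at 0.32 (adjusted p = 0.752). In the same order of genes the adjusted p was 0.186, 0.222, 0.355 and 0.569 without litter 100 and 0.0980, 0.139, 0.147 and 0.205 without libraries under 1000000 counts. The median epithelial sums were 2289, 1557, 1781 and 1456 CPM in normoxic AM, DC, Ly6Chi and Ly6Clo and 1522, 1106, 864 and 534 in hyperoxic ones, with overlapping ranges.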

How the data were processed

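The RNA of each sorted population was amplified with SMART-Seq v4 and made into Nextera XT libraries, per the labels' protocols, without molecular identifiers. Values in the deposited table are raw counts for each Ensembl gene. The submitters' processing notes name TopHat, HTSeq 0.4.1, FastQC, Picard, SAMtools and build NCBIM37, with no role given, and how the authors counted reads that match several genes (Scd1 and Scd2 are close relatives) is not given in the sources used here. Symbols and exonic lengths were joined by Ensembl identifier from a GENCODE annotation of GRCm38, and promoter windows from RefSeq; 0.828% of counts fell in genes without a symbol. The members and lists were chosen with earlier results of these data known.

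Counts were tested with edgeR 4.0.16 in R 4.3.3 (TMM scaling, filterByExpr at its settings of 10 counts and a total of 15, robust quasi-likelihood F test), with group and litter as terms. P-values were adjusted over all genes by the Benjamini-Hochberg method, and an adjusted p under 0.05 was called. Normoxic and hyperoxic libraries were fitted apart for population differences, each population apart for hyperoxia, and all 43 libraries together for the mean and the differences of the hyperoxia effect. For mean log2 CPM the prior count was 1. The standard error is the log2 fold change over the root of F. DESeq2 1.42.0, limma voom 3.58.1 and other filters, covariates and sets of libraries were tried as alternatives. The pipeline was tested on simulated data. Of 95 pairs of libraries within a group, 0 held identical values. Every member called in a comparison was named (beyond 12, those with the smallest p in full and the rest by fold), or the 4 with the smallest p where none was called, and for pairs of populations counts are given; of other lists, up to 6 with the smallest p. One result that this rule would name is not reported here.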

Additional observations from a re-analysis of the deposited data

Results flagged for a closer look

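For 14 members and the mean over all members, each group of 5 or 6 libraries was checked for a library far from the rest. This made 120 checks in all, of which 10 flagged a library. Chance alone marks about 1 check in 20. The log2 CPM of Sqle stood apart in 3 groups: 5.205 in normoxic DC replicate 4 (nearest other library 5.692), 6.337 in normoxic Ly6Clo replicate 1 (5.835) and 5.364 in hyperoxic Ly6Chi replicate 1 (4.629). Stard4 was high in normoxic Ly6Chi replicate 3, at 5.803 against 5.201. Msmo1 was low in hyperoxic AM replicate 3, the litter 100 library, at 7.912 against 8.337. Fasn was high in hyperoxic Ly6Clo replicate 4, at 6.085 against 4.526. Elovl6 was high in normoxic Ly6Chi replicate 3, at 5.008 against 4.355, and low in normoxic Ly6Clo replicate 4, at 1.503 against 3.162. Acly was high in normoxic DC replicate 6, at 7.96 against 7.388. The mean over the members was high in normoxic Ly6Chi replicate 1, at 5.217 against 4.962.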

How the results depend on the processing

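No paired analysis was possible because the replicate numbers used here follow accession order and mark no pup; litter, which the labels give, was a term in every fit but the one without it. Leaving out 1 library at a time gave 13 to 17 members called in hyperoxic AM, 4 to 7 in DC, 13 to 16 in Ly6Chi and 1 to 2 in Ly6Clo. In normoxia it gave 16 to 19 in AM, 6 to 12 in DC, 12 to 17 in Ly6Chi and 2 to 5 in Ly6Clo. Pairs gave 11 to 16 for AM against DC, 19 to 22 for AM against Ly6Chi, 7 to 11 for AM against Ly6Clo, 8 to 10 for DC against Ly6Chi, 6 to 8 for DC against Ly6Clo and 7 to 11 for Ly6Chi against Ly6Clo. The hyperoxia effect gave 0 to 1 over the mean of 4 populations and 0 in each population and in both tests of a difference.

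DESeq2 called 1 member for the mean hyperoxia effect (0 by edgeR), 2 in hyperoxic Ly6Clo (1) and 5 in normoxic Ly6Clo (3). Limma voom and the fit with no filter on low counts each called 2 in hyperoxic Ly6Clo. Without the litter term the counts were 3 in hyperoxic DC (6), 0 in hyperoxic Ly6Clo and 6 in normoxic DC (10). With the number of genes detected in the fit they were 10 in hyperoxic AM (17), 1 in hyperoxic DC, 3 in normoxic DC, 6 for AM against DC (15) and 6 for DC against Ly6Chi (10); Pmvk in AM under hyperoxia became 0.185 and Fasn in hyperoxic DC -0.0464. The epithelial covariate gave 3 in hyperoxic Ly6Clo. Without libraries under 1000000 counts 11 were called in hyperoxic AM, 3 in hyperoxic Ly6Clo and 5 in normoxic Ly6Clo. Without litter 93 the counts were 2 for the mean hyperoxia effect, 9 in hyperoxic AM, 1 in hyperoxic DC, 8 in hyperoxic Ly6Chi (14), 0 in hyperoxic Ly6Clo, 5 in normoxic DC, 10 in normoxic Ly6Chi (16), 9 for AM against DC, 4 for DC against Ly6Clo (7) and 7 for Ly6Chi against Ly6Clo (11). Without litter 100, 3 were called in hyperoxic Ly6Clo. Without litter 108 the counts were 11 in hyperoxic AM, 0 in hyperoxic Ly6Clo, 6 in normoxic DC, 10 in normoxic Ly6Chi, 1 in normoxic Ly6Clo, 5 for AM against Ly6Clo (9) and 6 for Ly6Chi against Ly6Clo. Fits without a litter rest on fewer libraries; for the other settings the cause was not tested. The mean log2 CPM of AM minus the other 3 populations was 0.511 over all members, 0.635 over sterol members and 0.221 over fatty acid members, and hyperoxic minus normoxic AM was -0.052 over all and -0.21 over fatty acid members. Low genes such as Lss, Elovl6, Idi1 and Fads2 rest on few counts, so small changes in them were not detectable at this depth.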
